A study of Mus musculus with 54 samples.

Results

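The interleukin-1 and interleukin-18 family was followed through 54 bulk RNA-seq libraries of macrophages sorted from mouse brains freed of the choroid plexuses. The members were 8 genes of 33280 gene symbols counted, found by their symbols in the 3 count files: the agonists Il1a and Il1b, the receptor antagonist Il1rn, the receptors Il1r1, Il1r2 and Il1rap, and Il18 with its binding protein Il18bp. The libraries came from microglia (MG) and from CNS-associated macrophages below the dura (sdCAMs), which sit in leptomeninges and perivascular spaces, and both were sorted from 24 mice in 18 groups of 3 libraries. Wild type (WT) and Ccr2 KO mice, the latter without functional Ccr2 in any cell, were either untreated and given PBS, treated with vehicle and given LPS (CTL+LPS), or treated with BLZ945 and given LPS (BLZ+LPS). BLZ945 blocks the CSF1 receptor and so removes macrophages that need its signal, after which their niches fill again, and LPS is a bacterial endotoxin. Mice of the genotype Ccr2CreERT2/CreERT2:R26tdT/tdT (reporter mice) were all treated with BLZ945 and tamoxifen and given PBS or LPS, so that no reporter group was free of BLZ945. In these mice the Ccr2 promoter drives the tamoxifen-dependent Cre, which switches on the fluorescent protein tdTomato, and sdCAMs were sorted as tdT+ and tdT- cells. Cells were collected 12 hours after the injection, which followed 8 weeks after the end of treatment. Ages were not used here. CTL+LPS and untreated mice differed in the vehicle as well as in LPS, and these cannot be told apart.

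Interleukin-1 alpha and beta act on the same receptor, formed by IL-1R1 and the shared accessory chain IL-1RAP, and signal through MyD88 and the IRAK kinases. Il1rn encodes the receptor antagonist, which occupies IL-1R1 without recruiting the accessory chain, and Il1r2 encodes a decoy receptor without a signalling domain. IL-1 beta and IL-18 are made as precursors that are cut by caspase-1 in inflammasomes, so that their transcripts do not give the amount of active cytokine. IL-18BP binds free IL-18 and keeps it from its receptor.

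All 8 members had a promoter in the RefSeq-based table of the build GRCm38.p6, which holds 3 starts for Il1rn and 2 for Il1r1. The 250 bases upstream of the start are printed 5′ to 3′ for both agonists, for Il1rn and for Il1r2, the genes on which the agonist and inhibitor balance turns. Capitals mark the AP-1 letters TGANTCA and, in Il1a, also the PU.1 letters GAGGAA.
Il1a, chr2:129309973-129310222, minus strand: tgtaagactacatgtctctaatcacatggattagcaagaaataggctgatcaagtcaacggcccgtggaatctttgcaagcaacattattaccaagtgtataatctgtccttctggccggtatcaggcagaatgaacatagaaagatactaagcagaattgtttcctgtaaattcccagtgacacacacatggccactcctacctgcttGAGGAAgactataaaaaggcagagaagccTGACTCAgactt
Il1b, chr2:129371140-129371389, minus strand: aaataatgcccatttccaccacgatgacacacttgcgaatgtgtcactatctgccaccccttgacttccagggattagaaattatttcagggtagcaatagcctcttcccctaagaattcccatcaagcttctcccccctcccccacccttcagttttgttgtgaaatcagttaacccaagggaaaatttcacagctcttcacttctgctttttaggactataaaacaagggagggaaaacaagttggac
Il1rn, start 1, chr2:24336610-24336859, plus strand: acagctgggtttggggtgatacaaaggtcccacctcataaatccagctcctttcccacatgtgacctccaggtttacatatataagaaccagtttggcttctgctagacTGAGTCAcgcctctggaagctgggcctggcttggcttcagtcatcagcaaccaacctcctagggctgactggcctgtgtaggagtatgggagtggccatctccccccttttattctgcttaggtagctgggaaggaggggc
Il1r2, chr1:40085843-40086092, plus strand: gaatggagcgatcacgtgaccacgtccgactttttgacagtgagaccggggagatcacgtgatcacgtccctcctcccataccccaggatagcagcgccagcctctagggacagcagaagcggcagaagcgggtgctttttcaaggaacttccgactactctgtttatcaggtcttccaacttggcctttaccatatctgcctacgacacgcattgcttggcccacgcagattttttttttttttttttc
On both strands of all these windows, TGANTCA was found in Il1a and at start 1 of Il1rn, and it was present in 6.75% of 32851 promoters of the same length. The C/EBP letters TTGCNNAA, present in 9.56% of promoters, were found at start 1 of Il1r1 and in Il18bp. The NF-kappaB motif, present in 7.25%, was found at start 2 of Il1r1, and GAGGAA, present in 23.3%, was found in Il1a. The interferon-stimulated response element, present in 2.98%, was found in none of the members. A match is a description of letters and says nothing of binding.

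Some features of the libraries bear on the values. Total counts ranged from 1705930 to 11330781 per library and were lowest in sdCAMs of WT mice (1705930 to 7699790). Levels are given as counts per 1000000 (CPM) after scaling by TMM, a normalization that sets the bulk of genes level between libraries. The scaling factors were 0.344 to 0.494 in WT sdCAMs after CTL+LPS and 0.843 to 1.19 in untreated WT sdCAMs, so values of WT sdCAMs depend on the scaling. For the Ccr2 KO libraries after LPS, the titles name the other cell type than the cell type label. The label was used, and the libraries placed as MG held 7.89 to 13.99 CPM of 5 sdCAM markers against 4706 to 6531 CPM in those placed as sdCAMs. In the LPS group of the reporter, the column names of the tdT- library of mouse 1 and the tdT+ library of mouse 7 carried each other's index number, and sex-linked genes disagreed within 2 of the 24 mice as named and within 0 when the columns were exchanged. In tdT+ sdCAMs of mouse 5 after LPS, 4 microglial markers stood at a median of 85.2% of their level in MG of the same mouse, against 2.55% to 36.8% in all other sdCAM libraries. The 6 WT sdCAM libraries of mice 1, 4, 6, 9, 12 and 14 carried the label "IEG correction", and those of mice 8, 11 and 15 did not. This label thus marked 3 of 3 CTL+LPS, 1 of 3 BLZ+LPS and 2 of 3 untreated WT sdCAM libraries. What was corrected, and whether the deposited counts were altered by it, is not given in the sources used here. Ccr2, the targeted gene, stood at 2.33 to 5.21 CPM in sdCAMs of untreated Ccr2 KO mice against 17 to 51 CPM in WT, whereas MG were at 4.71 to 6.48 and 3.08 to 8.54 CPM. In bulk samples, fewer cells of a type and less RNA per cell cannot be told apart.

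**Figure D1:**
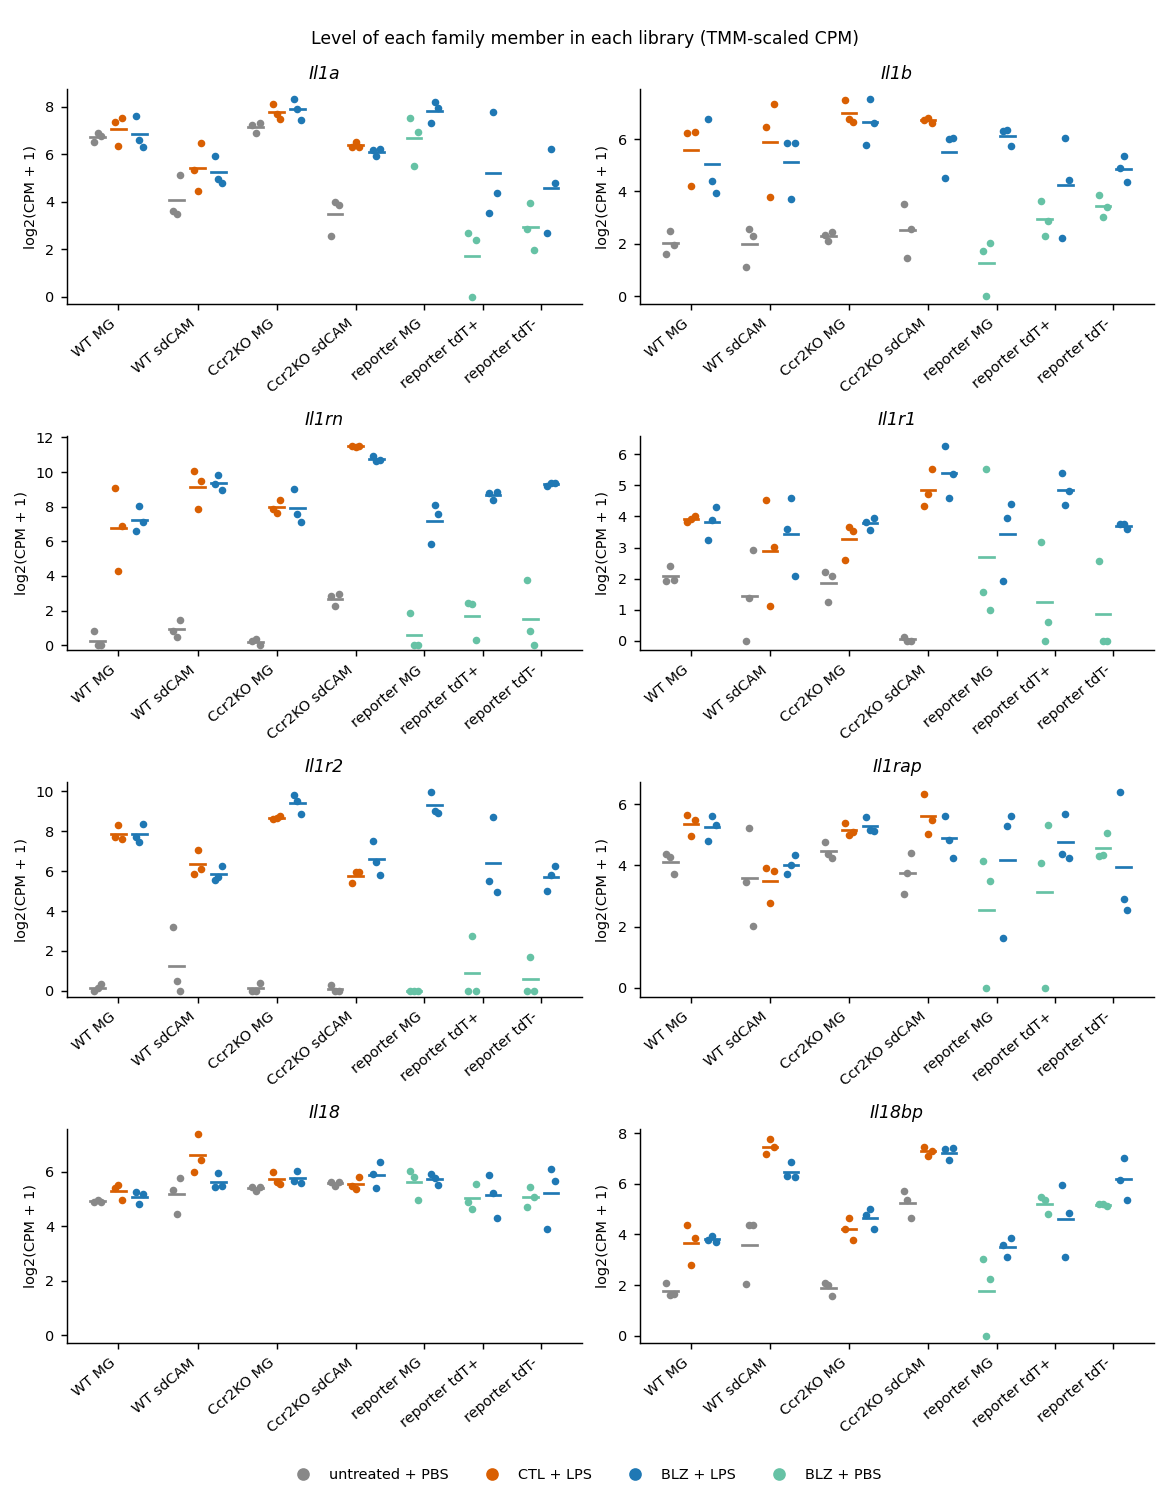
Level of each member in every library, as log2(CPM + 1) with TMM-scaled CPM on the vertical axis, with the populations on the horizontal axis and colours for treatment. Il1rn and Il1r2 lie near 0 without LPS in most libraries and are higher with LPS in all 7 populations, Il1a lies at 44.9 to 316 CPM in MG over all conditions, and Il18 lies within 13.8 to 168 CPM.

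A gene is called when its fold change exceeds 1 on the log2 scale, up or down, and its Benjamini-Hochberg adjusted p is below 0.05, and each adjusted p comes from edgeR's quasi-likelihood test over all genes of the fit. Fold changes are log2 values with the standard error (SE), for 3 libraries per group. All 8 members passed the low-count filter in all 29 comparisons. Without LPS, Il1rn and Il1r2 in MG, Il1r2 in sdCAMs, Il1rn in WT sdCAMs and Il1r1 in Ccr2 KO sdCAMs had few or no counts in most libraries. They passed there through the LPS groups, so that a difference was bound to appear. The numbers of called members below include them, and a call of theirs that is kept under other settings adds no support.

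In WT MG, LPS raised 6 members and lowered none, against 16.7% of 11789 genes called in either direction and 9.08% called higher. Il1b, the inducible agonist, stood at 2.02, 4.68 and 2.88 CPM in the untreated mice and at 73.8, 17.6 and 76.1 CPM after CTL+LPS. The groups did not overlap, and mouse 4 was the lowest after LPS. The rise of Il1b was 4.13 (SE 0.82, adjusted p = 0.00282). Il1rn, the antagonist, went from 7, 0 and 0 counts to 538, 18.7 and 115 CPM, and the rise was 9.85 (SE 1.41, adjusted p = 0.000384). Its level after LPS thus spanned the widest range of the called members, with mouse 4 again the lowest. The decoy receptor Il1r2 went from 0, 1 and 3 counts to 211, 314 and 193 CPM, a rise of 10.72 (SE 0.49, adjusted p = 1.57e-07). Here mouse 4 was the highest.

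The signalling receptor Il1r1 in WT MG rose from 2.76 to 4.28 CPM to 13.1 to 15.1 CPM, by 2.10 (SE 0.33, adjusted p = 0.000652), and its accessory chain Il1rap rose by 1.31 (SE 0.27, adjusted p = 0.0035). Il18bp rose from 2.04 to 3.19 CPM to 5.84 to 19.5 CPM, by 2.41 (SE 0.41, adjusted p = 0.0012). Il1a, at 90.8, 118 and 106 CPM before and 164, 80.2 and 185 CPM after LPS, and Il18, at 28.4 to 30.3 and 30.1 to 45.2 CPM, did not pass the test (0.45, SE 0.34, adjusted p = 0.348, and 0.42, SE 0.19, adjusted p = 0.113). In both, the groups overlapped. Per kilobase of exon, Il1a was the highest of the 8 members in each untreated WT MG library.

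MG of Ccr2 KO mice gave 5 members higher and none lower, against 19.4% of 11558 genes called in either direction and 10.5% higher. Il1b rose from 3.26 to 4.5 CPM to 182, 109 and 100 CPM, by 5.07 (SE 0.43, adjusted p = 1.17e-06). Il1rn rose from 2, 3 and 0 counts to 232, 200 and 338 CPM, by 10.55 (SE 0.70, adjusted p = 1.54e-07). Il1r2 had 3 counts in the 3 untreated libraries together and 14766 after LPS, a ratio of 4200 with an exact 95% counting interval of 1440 to 20400 (adjusted p = 1.01e-09). Il1r1 rose by 1.74 (SE 0.43, adjusted p = 0.00652) and Il18bp by 2.74 (SE 0.34, adjusted p = 2.89e-05). Il1a, at 118 to 159 CPM without and 179 to 278 CPM with LPS, and Il1rap differed by 0.66 (SE 0.22, adjusted p = 0.0286) and 0.73 (SE 0.21, adjusted p = 0.0167), below the fold limit, and Il18 was at 0.37 (SE 0.18, adjusted p = 0.132). Counting intervals pool the 3 libraries of a group and cover the counting error of reads only, not the spread between mice. The reads carried no molecular identifiers.

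In sdCAMs of Ccr2 KO mice, 7 of the 8 members rose and none fell, against 21.5% of 11941 genes called and 10.9% higher. Il1rn had the highest level per kilobase of the 8 members after LPS. It went from 6.07, 3.72 and 6.68 CPM to 2925, 2848 and 2899 CPM, a rise of 9.03 (SE 0.24, adjusted p = 3.89e-10). The 3 libraries after LPS lay close together. Il1a rose from 4.92, 14.8 and 13.5 CPM to 78, 91.3 and 78.9 CPM, by 2.91 (SE 0.35, adjusted p = 4.71e-05). Il1b rose from 10.5, 1.75 and 4.98 CPM to 105, 112 and 97.8 CPM, by 4.19 (SE 0.56, adjusted p = 0.00012). Both agonists were thus higher in each LPS library than in any untreated one. Il1r1 had 1, 0 and 0 counts without LPS and 148, 239 and 367 counts with it, a ratio of 804 (exact 95% counting interval 144 to 31800, adjusted p = 4.73e-06). Il1r2 had 2, 0 and 0 counts and then 313, 589 and 498 counts, a ratio of 746 (206 to 6170, adjusted p = 1.40e-06). Il1rap rose by 1.95 (SE 0.47, adjusted p = 0.00788) and Il18bp, from 24.1 to 52 CPM to 135 to 175 CPM, by 2.00 (SE 0.26, adjusted p = 0.000103). Il18 was at 43.9 to 47.8 CPM without and 40.1 to 55.4 CPM with LPS. The 6 neutrophil markers summed to 16.95 to 31.62 CPM in these LPS libraries and to at most 1.58 CPM in the untreated ones. Ly6g and Retnlg were at 0 in both, whereas Cxcr2, Camp, Ngp and Mmp8 had counts after LPS. The 4 markers of classical monocytes summed to 5.51 to 15.8 CPM after LPS and to 0 CPM without it. The part of either set of markers in the result was not tested.

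In WT sdCAMs, 4 members were called higher and none lower, against 6.32% of 10504 genes called and 3.7% higher. Il1rn went from 2, 1 and 4 counts to 1063, 231 and 722 CPM, a rise of 9.52 (SE 0.96, adjusted p = 0.00135). Il18bp went from 3.11, 19.5 and 19.7 CPM to 142, 219 and 176 CPM, a rise of 3.81 (SE 0.63, adjusted p = 0.00907). Il1b went from 1.17, 4.87 and 3.94 CPM to 88.3, 12.8 and 164 CPM, by 4.89 (SE 1.01, adjusted p = 0.0199), and Il1r2 from 8.18, 0.41 and 0 CPM to 57.8, 132 and 68.5 CPM, by 4.96 (SE 1.07, adjusted p = 0.0234). The groups did not overlap for any of these genes. The calls of Il1rn and Il18bp were kept when any of the 6 libraries was left out. For Il1rn, with its 2, 1 and 4 counts without LPS, this adds no support. The call of Il1b was lost in 5 of 6 cases (without mouse 1, 6, 9, 14 or 15, adjusted p = 0.0517 to 0.0804) and that of Il1r2 in 4 of 6 (without mouse 1, 4, 6 or 14, adjusted p = 0.0517 to 0.0894). With library totals in place of TMM, the median of all genes moved from -0.08 to -1.55, and the rises of Il1b, Il1rn, Il1r2 and Il18bp were 3.48, 8.04, 3.69 and 2.25 and still called. Il1a, Il1r1, Il18 and Il1rap then stood at 0.12, 0.34, 0.07 and -1.84. Il1a (1.63, SE 0.68, adjusted p = 0.166), Il1r1 (2.08, SE 1.40, adjusted p = 0.387) and Il18 (1.61, SE 0.50, adjusted p = 0.0764) did not pass, and Il1rap was at -0.47 (SE 0.89, adjusted p = 0.784). Il18 was called by DESeq2 (1.63, adjusted p = 0.0332) and with the IEG label as a covariate (1.80, adjusted p = 0.0426). Neutrophil markers summed to 1.17 to 53.6 CPM after LPS and to at most 1.31 CPM without it, with Ly6g, Retnlg and Ngp at 0 after LPS, and their part was not tested.

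**Figure D2:**
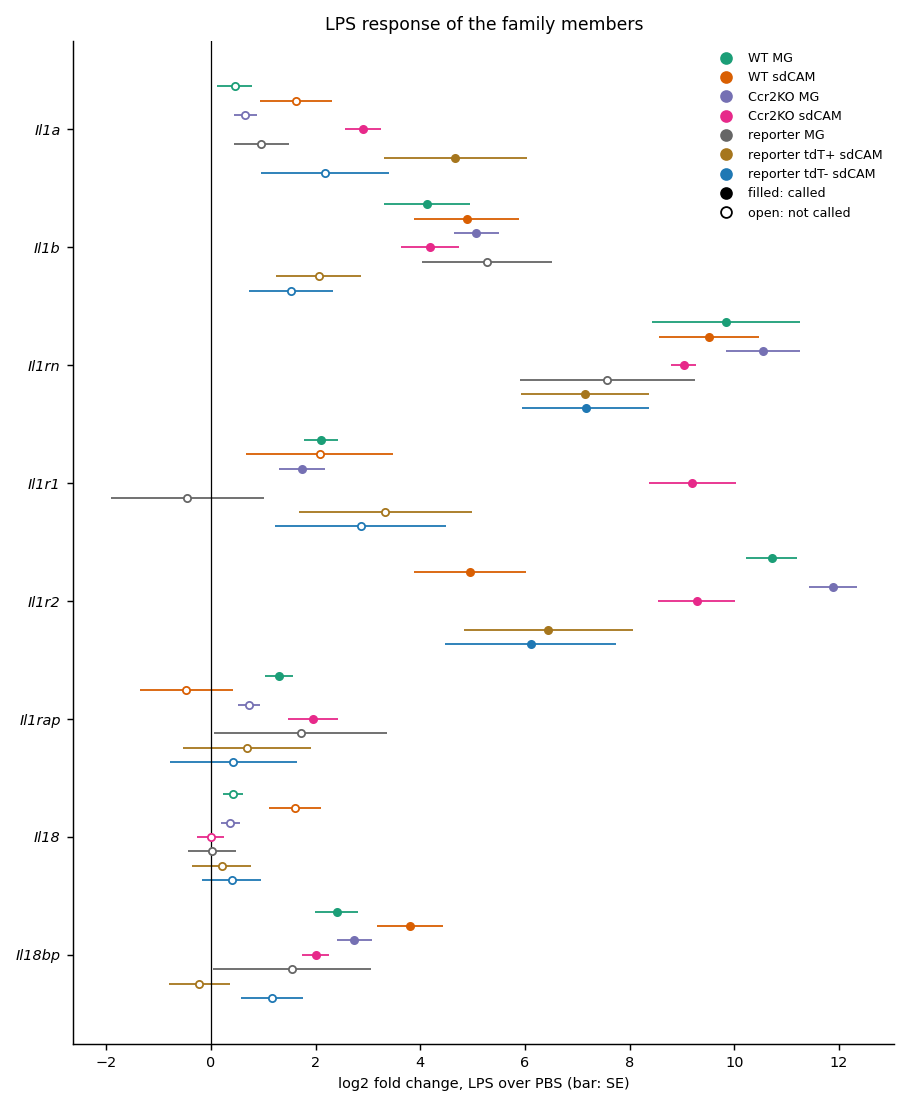
Log2 fold change of each member after LPS (horizontal axis, bars give the SE, 3 libraries per group) in the 7 populations, with filled points for called changes and open points for the rest. The rises of Il1rn lie between 7.15 and 10.55 in all populations and no point of Il18 is filled. No point is drawn for Il1r2 in reporter MG, which had 0 counts after PBS.

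The reporter mice had all been repopulated, and LPS was compared with PBS among them. In their MG, 1 member was called, Il1r2, against 1.08% of 10882 genes in either direction and 0.662% higher. It had no count in the 3 PBS libraries and 990, 518 and 481 CPM after LPS, at least 6930-fold higher than a floor of 3 counts over the PBS group (adjusted p = 0.00609). Il1b, from 2.33, 0 and 3.08 CPM to 79.4, 80.7 and 52 CPM, and Il1rn, from 2.58, 0 and 0 CPM to 56.4, 272 and 192 CPM, were separate between the groups but did not pass (adjusted p = 0.0956 and 0.086). The other 5 members ranged from -0.45 (Il1r1, SE 1.47) to 1.71 (Il1rap, SE 1.66). The PBS library of mouse 175 had the fewest genes with a count of all libraries (10815), held 0 counts of Il1b, Il1rn, Il1rap and Il18bp and 432 counts of Il1r1, and without it 3 members were called. Without the LPS library of mouse 1 or 5, no member was called, and the adjusted p of Il1r2 was 0.0529 and 0.0517.

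In tdT+ sdCAMs, 3 members rose and none fell, against 13.4% of 12708 genes called and 7.54% higher. Il1rn went from 4.32, 4.17 and 0.21 CPM (mice 174, 175 and 177) to 437, 336 and 468 CPM (mice 1, 5 and 7), by 7.15 (SE 1.23, adjusted p = 0.0015), and this call was kept without any single library. Il1a rose by 4.67 (SE 1.37, adjusted p = 0.0337) and Il1r2 by 6.45 (SE 1.61, adjusted p = 0.0153), and both rested on mouse 5. Il1a was at 10.6, 218 and 19.7 CPM and Il1r2 at 44.4, 417 and 29.6 CPM in mice 1, 5 and 7, so that the library with the microglial markers stood apart in both. Without it, the rises were 2.21 (adjusted p = 0.28) and 4.27 (adjusted p = 0.102). Il1a was also lost with the 2 columns exchanged (adjusted p = 0.063) and without any of the PBS libraries of mice 174, 175 and 177 (adjusted p = 0.0663 to 0.0799). Il1b stood at 3.67, 64.9 and 21.0 CPM after LPS and at 3.95 to 11.3 CPM after PBS, and the groups overlapped (2.06, SE 0.82, adjusted p = 0.109). Il1r1 (3.33, SE 1.65, adjusted p = 0.201), Il1rap (0.69, SE 1.22), Il18 (0.21, SE 0.56) and Il18bp (-0.22, SE 0.59) did not pass either. Neutrophil markers summed to 10.8 to 23.6 CPM after LPS and to at most 0.677 CPM after PBS, with Ly6g, Retnlg and Ngp at 0 in both, and their part was not tested.

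In tdT- sdCAMs, 2 members rose and none fell, against 26.5% of 12708 genes called and 14.5% higher. Il1rn went from 12.4, 0.79 and 0 CPM to 585, 651 and 674 CPM, by 7.16 (SE 1.22, adjusted p = 0.000471), and Il1r2 from 0, 2.27 and 0 CPM to 31.5, 55.4 and 74.7 CPM, by 6.11 (SE 1.63, adjusted p = 0.0114). Both calls were kept without any single library and with the 2 columns exchanged or left out, except that DESeq2 gave no adjusted p for Il1rn. For Il1r2 a kept call adds no support, and Il1rn had only 8 and 0 counts after PBS in mice 175 and 177. Il1r1 was at 4.9, 0 and 0 CPM after PBS and at 11.1 to 12.6 CPM after LPS, and did not pass (2.86, SE 1.64, adjusted p = 0.208). The other 5 members ranged from 0.40 (Il18, SE 0.56) to 2.18 (Il1a, SE 1.23). With library totals the median of all genes moved from 0.04 to -0.75, and Il1rn (6.35) and Il1r2 (5.34) were still called. The PBS library of mouse 175 held all counts of Il1r2 in either sorted population, 50 in tdT+ and 23 in tdT- cells. The summed level of 5 lymphocyte markers reached 170 CPM in 1 tdT- library after LPS and 116 CPM in 1 tdT+ library after PBS, and its part was not tested. Neutrophil markers summed to 24.4 to 125 CPM in tdT- cells after LPS and to at most 4.33 CPM after PBS, with Ly6g, Retnlg and Ngp at 0 in both, and their part was not tested either.

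Averaged over tdT+ and tdT- sdCAMs, Il1a, Il1b, Il1rn and Il1r2 rose and none fell, against 28.8% of 12708 genes called and 16.6% higher. The tdT+ and tdT- libraries of a mouse entered this fit as independent. The correlation between sdCAM libraries of the same reporter mouse was estimated at 0.118, so the SE here may be too small. This estimate uses the mice as named. The deviations of tdT+ and tdT- libraries from their group means correlated at 0.127, 0.211 and 0.0897 in mice 1, 5 and 7 as named. With the 2 columns exchanged, these values were 0.409, -0.0451 and 0.39. Il1b rose by 1.80 (SE 0.57, adjusted p = 0.0247), Il1a by 3.43 (SE 0.91, adjusted p = 0.00902), Il1rn by 7.16 (SE 0.87, adjusted p = 1.91e-05) and Il1r2 by 6.28 (SE 1.15, adjusted p = 0.000627). Without the tdT+ library of mouse 5, Il1a (2.17, adjusted p = 0.0716) and Il1b (1.13, adjusted p = 0.137) were lost. Il1b was lost as well without either PBS library of mouse 175 or 177 (adjusted p = 0.0523 to 0.0656) and with library totals (1.52, adjusted p = 0.0504). Il1r1 (3.10, SE 1.16, adjusted p = 0.0512) did not pass here but was called by DESeq2 (3.22, adjusted p = 0.0116), and Il1rap, Il18 and Il18bp were at 0.56, 0.30 and 0.48.

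The question whether tdT+ and tdT- sdCAMs differ in these genes was put to the same fit. Between them, 0 members were called after PBS, where 0.0236% of 12708 genes were called, 0 after LPS, where 10.6% were called, and 0 for the difference between their LPS responses, where 5.17% were called. At an unadjusted p under 0.05 there were 0, 1 and 0 members, and DESeq2 called 0 in each. The 1 was Il18bp after LPS, at 60.7, 7.61 and 27.4 CPM in tdT+ and 69.7, 128 and 40 CPM in tdT- sdCAMs of mice 1, 5 and 7 (-1.33, SE 0.60, adjusted p = 0.184). Its lowest tdT+ value came from mouse 5, the library with the microglial markers, and reporter MG stood at 7.63 to 13.6 CPM after LPS. With the 2 columns exchanged, the values would be 60.7, 7.61 and 69.7 CPM in tdT+ and 27.4, 128 and 40 CPM in tdT- sdCAMs. Il18bp was called without the tdT+ library of mouse 1 (-2.19, adjusted p = 0.0464). With library totals it was at -0.22 (adjusted p = 0.791), as the median of all genes moved from 0.11 to 1.14. The members ranged from -1.27 (Il1a) to 1.27 (Il1r2) after PBS, and the other 7 from -0.62 (Il1rn) to 1.61 (Il1r2) after LPS. The differences in LPS response ranged from -1.40 (Il18bp) to 2.48 (Il1a). The intervals were wide, as the SE of the difference in LPS response was 1.70 for Il1a and 2.48 for Il1rn, and TMM factors were 1.18 to 1.3 in tdT+ against 0.47 to 0.7 in tdT- libraries after LPS.

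The balance of inhibitor and agonist was described by the log2 ratio of counts within a library, which no scaling between libraries can change. To each side of the ratio 0.5 counts were added, and no test was made. Because counts are not divided by gene length, the sign of a ratio is not a ratio of molecules, and the differences between groups are what it shows. The ratio of Il1rn to Il1a plus Il1b in MG was -9.78 ± 2.53 (SD, n = 3) in untreated WT and -9.82 ± 1.52 in untreated Ccr2 KO mice, and -0.79 ± 1.81 and -0.46 ± 0.65 after CTL+LPS. In sdCAMs it was -4.21 ± 0.48 and -1.64 ± 0.43 without LPS and 2.44 ± 0.82 and 3.95 ± 0.12 with it. The shift with LPS was thus 8.99 in WT MG, 9.37 in Ccr2 KO MG, 6.65 in WT sdCAMs and 5.59 in Ccr2 KO sdCAMs, and the groups did not overlap in any of the 4. The sdCAMs stood above MG of the same genotype both without and with LPS, with no overlap between the cell types. In the reporter mice the ratio shifted by 8.02 in MG (-9.08 ± 2.64 to -1.05 ± 0.89), 5.30 in tdT+ (-2.40 ± 2.73 to 2.90 ± 2.40) and 7.91 in tdT- sdCAMs (-4.42 ± 3.62 to 3.48 ± 0.85), again without overlap. The tdT+ groups nearly met, at 0.08 in mouse 175 after PBS and 0.25 in mouse 5 after LPS, the library with the microglial markers. With 5 counts added in place of 0.5, the shift in MG was 5.76 to 7.37, since it rests on few counts of Il1rn without LPS.

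Per length of exon, Il1rn after CTL+LPS reached 522 CPM per kilobase in Ccr2 KO sdCAMs, where Il1a was at 41.9 and Il1b at 55.1. In Ccr2 KO MG the means were 46.3 for Il1rn, 68.4 for Il1b and 112 for Il1a, with Il1rn below Il1a in every library and overlapping with Il1b. In WT sdCAMs the means were 121 for Il1rn, 46.3 for Il1b and 25.1 for Il1a, and in WT MG 40.4, 29.3 and 72.4. Il1rn exceeded both agonists in each of the 3 WT sdCAM libraries and in the MG library of mouse 1 alone, and over the libraries its range overlapped with that of Il1b in both cell types. Lengths were the union of annotated exons, 5535 bases for Il1rn, 1974 for Il1a and 1907 for Il1b. A union can be longer than any single transcript, so the order of the genes depends on it.

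The ratio of Il18bp to Il18 rose with LPS by 1.85 in WT MG, 2.35 in Ccr2 KO MG, 2.57 in WT sdCAMs and 2.08 in Ccr2 KO sdCAMs, without overlap of the groups. It was -1.72 ± 1.06 in WT MG and 0.87 ± 0.43 in WT sdCAMs after CTL+LPS. In reporter MG it shifted by 3.10 without overlap, but by 0.76 without the PBS library of mouse 175, which had 0 counts of Il18bp. It shifted in tdT+ and tdT- sdCAMs by -0.75 and 0.86 with overlap, values that single libraries moved widely. The ratio of the decoy Il1r2 to the signalling receptor Il1r1 rose by 8.63 in WT MG, 10.37 in Ccr2 KO MG and 12.64 in reporter MG, without overlap. Without LPS, however, MG libraries held only 0 to 3 counts of Il1r2. The added 0.5 counts thus weigh on these sizes, and a difference was bound to appear. In reporter MG the lowest ratio, -9.76, came from the PBS library of mouse 175 with its 432 counts of Il1r1. In sdCAMs the ratio was not read, because few counts of either gene without LPS let the added 0.5 counts set it. In untreated Ccr2 KO sdCAMs, for example, 1 library had 2 counts of Il1r2 and 1 of Il1r1 and the others had 0 of both.

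**Figure D3:**
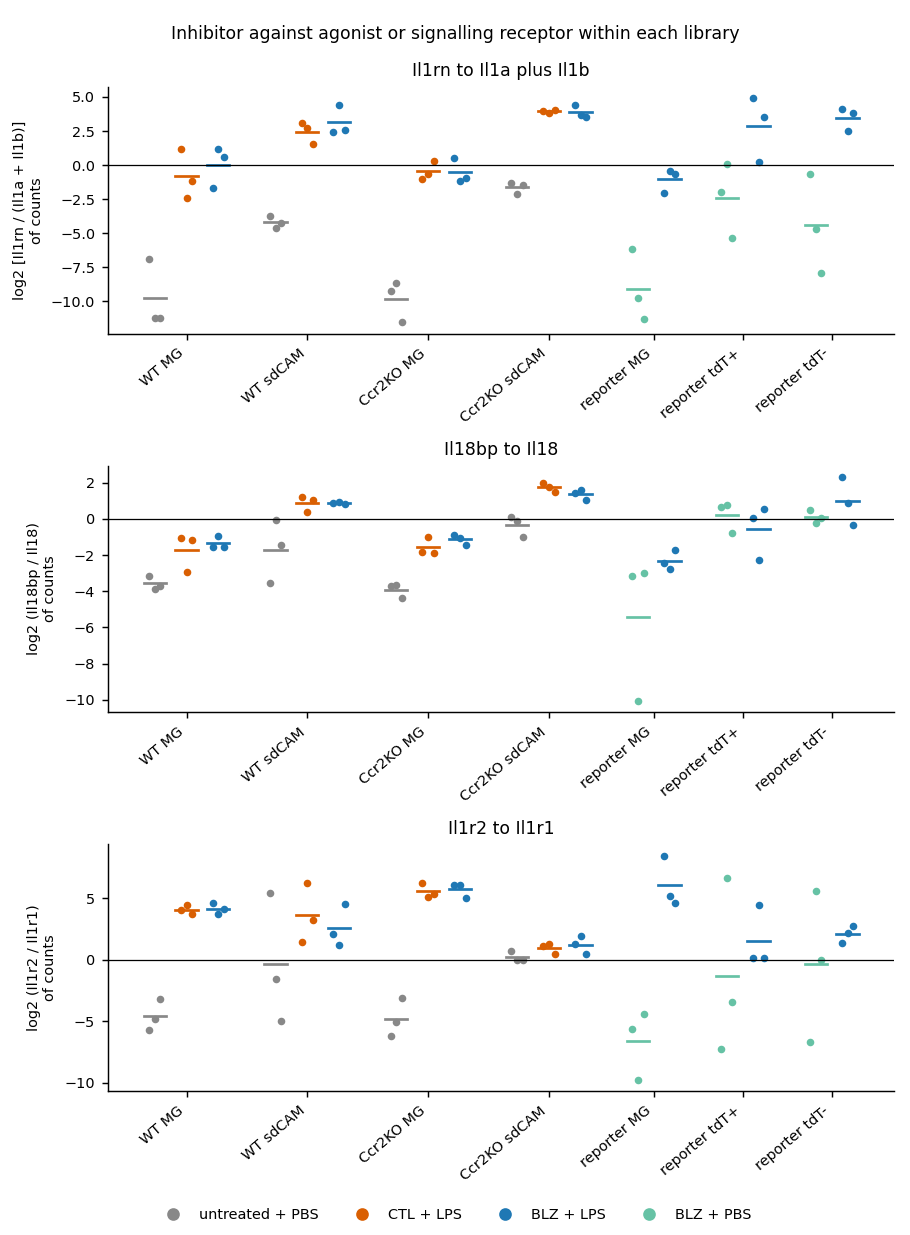
Log2 ratio of counts of inhibitor to agonist (top, Il1rn to Il1a plus Il1b), of binding protein to cytokine (middle, Il18bp to Il18) and of decoy to signalling receptor (bottom, Il1r2 to Il1r1) in every library, by population, with colours for treatment. The top ratio is higher with LPS in all 7 populations, and in WT and Ccr2 KO mice it is higher in sdCAMs than in MG, at 3.95 against -0.46 in Ccr2 KO mice after CTL+LPS.

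The cell types were compared without LPS and after CTL+LPS, in one fit per genotype. In untreated WT mice 3 members were called, against 17.1% of 13136 genes. Il1a was lower in sdCAMs, at 11.3, 10.1 and 34.1 CPM against 90.8 to 118 CPM in MG (-2.52, SE 0.57, adjusted p = 0.00665). Il18bp was higher in sdCAMs (2.51, SE 0.54, adjusted p = 0.00478). Il1r2 was higher as well (4.34, SE 1.05, adjusted p = 0.00943), but 21 of its 22 counts came from mouse 9, without which the call was lost (adjusted p = 0.837). The other 5 members ranged from -0.31 (Il1r1, SE 0.98) to 1.95 (Il1rn, SE 1.45). After CTL+LPS, 4 members were called in WT, against 35.4% of 13136 genes. Il18bp stood at 142 to 219 CPM in sdCAMs against 5.84 to 19.5 CPM in MG (3.83, SE 0.54, adjusted p = 0.000143). Il18 was higher in sdCAMs (1.49, SE 0.38, adjusted p = 0.00558), but with library totals it was at -0.33 (adjusted p = 0.617). Il1a was at -1.43 (SE 0.55, adjusted p = 0.0485) and Il1rap at -1.79 (SE 0.63, adjusted p = 0.0347), and neither was stable. Il1a was lost without the sdCAM library of mouse 1 or 4 or the MG library of mouse 1 or 6 (adjusted p = 0.115 to 0.152) and was at -0.30 with the IEG label as a covariate (adjusted p = 0.833). Il1rap was lost without the sdCAM library of mouse 1, 4 or 6 or the MG library of mouse 1 or 6 (adjusted p = 0.0561 to 0.102). Il1rn was at 231 to 1063 CPM in sdCAMs and 18.7 to 538 CPM in MG and did not pass (1.63, SE 0.91, adjusted p = 0.168). With library totals it was at -0.13 (adjusted p = 0.899), as the median of all genes moved from -0.12 to -1.92. With the mouse as a block it was at 2.49 and called (adjusted p = 0.0111). Without the MG library of mouse 1 it was also called (3.39, adjusted p = 0.0191). Il1b (0.75, SE 0.84, adjusted p = 0.498), Il1r1 (-0.36, SE 0.92, adjusted p = 0.774) and Il1r2 (-1.42, SE 0.66, adjusted p = 0.0993) did not pass. Il1r2 was called as lower in sdCAMs without the low-count filter (-1.50, adjusted p = 0.0061), with only the compared libraries (-1.37, adjusted p = 0.0146), with the IEG-labelled sdCAM libraries alone (-1.47, adjusted p = 0.0167) and with library totals (-3.25, adjusted p = 0.000411).

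In untreated Ccr2 KO mice 4 members were called, against 15% of 12890 genes. Il1a stood at 4.92 to 14.8 CPM in sdCAMs and 118 to 159 CPM in MG (-3.69, SE 0.32, adjusted p = 5.40e-08). Il1rn was higher in sdCAMs, at 3.72 to 6.68 against 0 to 0.26 CPM (4.98, SE 0.73, adjusted p = 4.25e-05), and so was Il18bp (3.82, SE 0.33, adjusted p = 5.59e-08). Il1r1 was lower, with 1 count in the sdCAM libraries together and 83 in MG, so that MG were 72.6-fold higher (exact 95% counting interval 12.7 to 2900, adjusted p = 9.67e-05). Il1b, Il1r2, Il1rap and Il18 were at 0.55, -0.35, -0.67 and 0.17. After CTL+LPS 5 members were called, against 18.4% of 12890 genes. Il1rn was higher by 3.50 (SE 0.37, adjusted p = 8.05e-07) and Il18bp by 3.12 (SE 0.30, adjusted p = 1.86e-07) in sdCAMs, whereas Il1r2, at 40.8 to 62 against 385 to 436 CPM, was lower by 2.90 on the log2 scale (SE 0.37, adjusted p = 6.83e-06). Il1a stayed lower in sdCAMs (-1.41, SE 0.28, adjusted p = 0.000938). Il1r1 was now higher in sdCAMs (1.72, SE 0.47, adjusted p = 0.0102), a call that was lost without MG of V1m (adjusted p = 0.0681) or sdCAMs of V4f (adjusted p = 0.0669). Il1b, Il1rap and Il18 were at -0.30, 0.58 and -0.17.

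**Figure D4:**
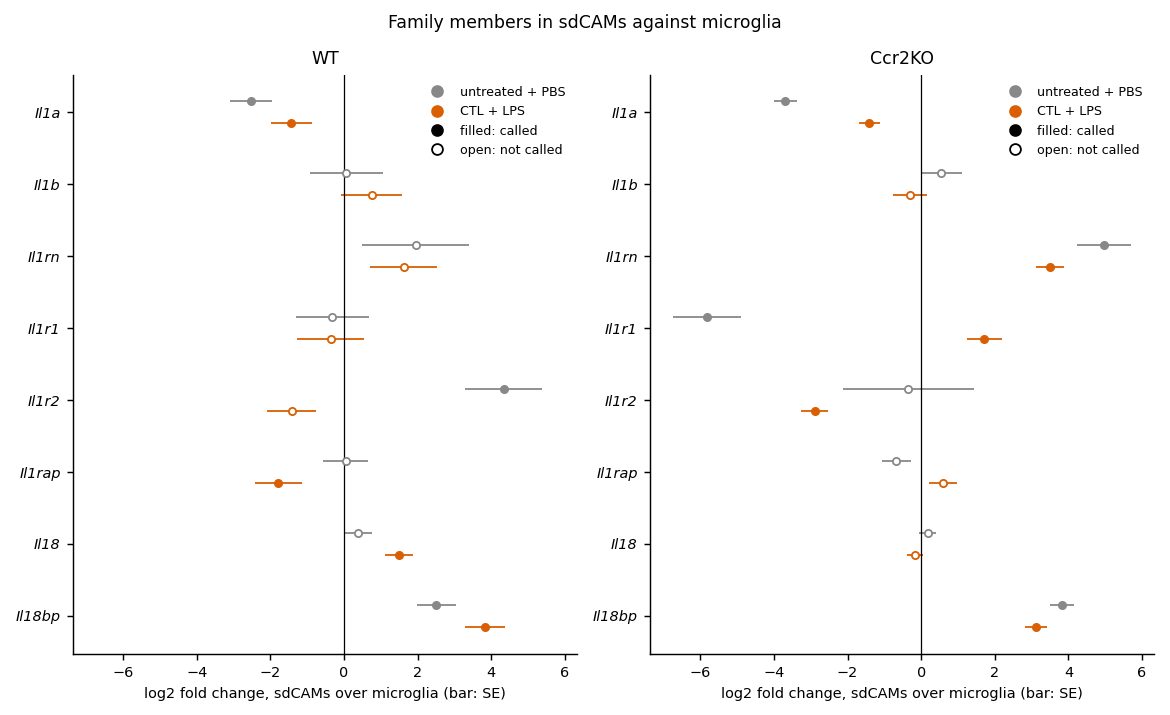
Log2 fold change of each member in sdCAMs over MG (horizontal axis, bars give the SE, 3 mice per group) in WT (left) and Ccr2 KO mice (right), untreated in grey and after CTL+LPS in orange, with filled points for called changes. Il1a is lower and Il18bp is higher in sdCAMs in all 4 comparisons, and Il1r1 in Ccr2 KO mice lies at -5.81 without and 1.72 with LPS.

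The difference between the cell types in the size of the LPS response was tested as an interaction. In Ccr2 KO mice Il1a (2.28, SE 0.41, adjusted p = 0.00122) and Il1r1 (7.53, SE 1.03, adjusted p = 8.33e-05) rose more in sdCAMs than in MG, against 6.88% of 12890 genes called, and both calls were kept under the 8 alternative settings tried and without any single library. The size of the value of Il1r1 rests on 1 count in the untreated sdCAM libraries together and gives no resting level. The other 6 members ranged from -2.54 (Il1r2, SE 2.33) to 1.25 (Il1rap, SE 0.54). In WT mice Il1r2 rose less in sdCAMs than in MG (-5.76, SE 1.24, adjusted p = 0.0298), against 1.32% of 13136 genes. This call was lost with the mouse as a block (-5.09, adjusted p = 0.0755) and without any of 8 of the 12 libraries: those of MG of mice 1, 4, 6, 9, 14 and 15 and of sdCAMs of mice 6 and 9 (adjusted p = 0.0505 to 0.517). Without sdCAMs of mouse 9 it was at -2.05. The other 7 members ranged from -1.83 (Il1rap, SE 0.88) to 1.31 (Il18bp, SE 0.72), and with library totals, where the median of all genes moved from -0.23 to -1.70, Il1rap was called as well (-3.21, adjusted p = 0.0243). In reporter mice 0 members were called for the same difference, against 2.15% of 13309 genes, with 2 members, Il1b (-3.46, SE 1.17) and Il1r2 (-9.06, SE 2.60), at an unadjusted p under 0.05, and 2 called by DESeq2. The other 6 ranged from -1.16 (Il1rap, SE 1.79) to 3.47 (Il1r1, SE 2.03). After PBS, sdCAMs of the reporter mice differed from MG in 2 members, against 11.1% of 13309 genes: Il1a was lower (-4.56, SE 0.92, adjusted p = 0.00265) and Il18bp higher (3.27, SE 0.91, adjusted p = 0.0231). The call of Il18bp was lost without MG of mouse 177 (adjusted p = 0.0665). The other 6 ranged from -2.90 (Il1r1, SE 1.34) to 6.25 (Il1r2, SE 2.50).

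Repopulation was examined by setting BLZ+LPS against CTL+LPS, comparisons that share their CTL+LPS libraries with the LPS responses above. In WT MG 0 members were called (0.0763% of genes), in WT sdCAMs 0 (0%), in Ccr2 KO MG 0 (0.0173%) and in Ccr2 KO sdCAMs 0 (0%). At an unadjusted p under 0.05 there were 0, 1, 1 and 3 members, and DESeq2 called 0 in each. The 1 in WT sdCAMs was Il18, at 42.1, 60.6 and 43.2 CPM after BLZ+LPS and 61.9, 168 and 86.0 CPM after CTL+LPS (-1.18, SE 0.49, adjusted p = 0.689). With library totals it was at 0.22 (adjusted p = 0.844), as the median of all genes moved from 0.07 to 1.41. The 1 in Ccr2 KO MG was Il1r2, at 889, 739 and 468 CPM against 385, 407 and 436 CPM (0.76, SE 0.23, adjusted p = 0.627), where the groups did not overlap. The members ranged from -0.42 (Il1rn, SE 0.81) to 0.02 (Il18bp, SE 0.37) in WT MG. The other 7 ranged from -1.16 (Il1b, SE 0.84) to 0.40 (Il1rap, SE 0.89) in WT sdCAMs and from -0.23 (Il1b, SE 0.34) to 0.48 (Il1r1, SE 0.41) in Ccr2 KO MG. In WT sdCAMs, the IEG label marked every CTL+LPS library but only that of mouse 12 after BLZ+LPS. Label and BLZ945 thus cannot be fully told apart there. TMM factors after BLZ+LPS were 0.369 in mouse 12, 1.21 in mouse 8 and 1.28 in mouse 11. The 0 in WT sdCAMs therefore does not show a lack of effect.

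In Ccr2 KO sdCAMs, Il1rn stood at 1978, 1586 and 1636 CPM after BLZ+LPS and at 2925, 2848 and 2899 CPM after CTL+LPS. The groups did not overlap, and the difference of -0.76 (SE 0.16, adjusted p = 0.222) did not pass. Il1b was at 21.9, 63.8 and 65.1 CPM against 97.8 to 112 CPM (-1.09, SE 0.48, adjusted p = 0.582), likewise without overlap. Il1r2, at 180, 88.0 and 55.2 CPM against 40.8 to 62 CPM, overlapped (0.95, SE 0.40, adjusted p = 0.557). The other 5 ranged from -0.75 (Il1rap, SE 0.45) to 0.62 (Il1r1, SE 0.45). Neutrophil markers summed to 30.7 to 115 CPM after BLZ+LPS and 16.9 to 31.6 CPM after CTL+LPS, and their part was not tested.

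The precision differed between the populations: the SE of the BLZ945 effect was 0.16 for Il1rn in Ccr2 KO sdCAMs but 0.65 in WT sdCAMs and 0.81 in WT MG. The ratio of Il1rn to Il1a plus Il1b after BLZ+LPS was 0.03 ± 1.48 in WT MG, 3.15 ± 1.11 in WT sdCAMs, -0.54 ± 0.91 in Ccr2 KO MG and 3.89 ± 0.46 in Ccr2 KO sdCAMs, and overlapped with CTL+LPS in all 4. Il1rn stood at 96.3, 259 and 138 CPM in WT MG after BLZ+LPS.

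**Figure D5:**
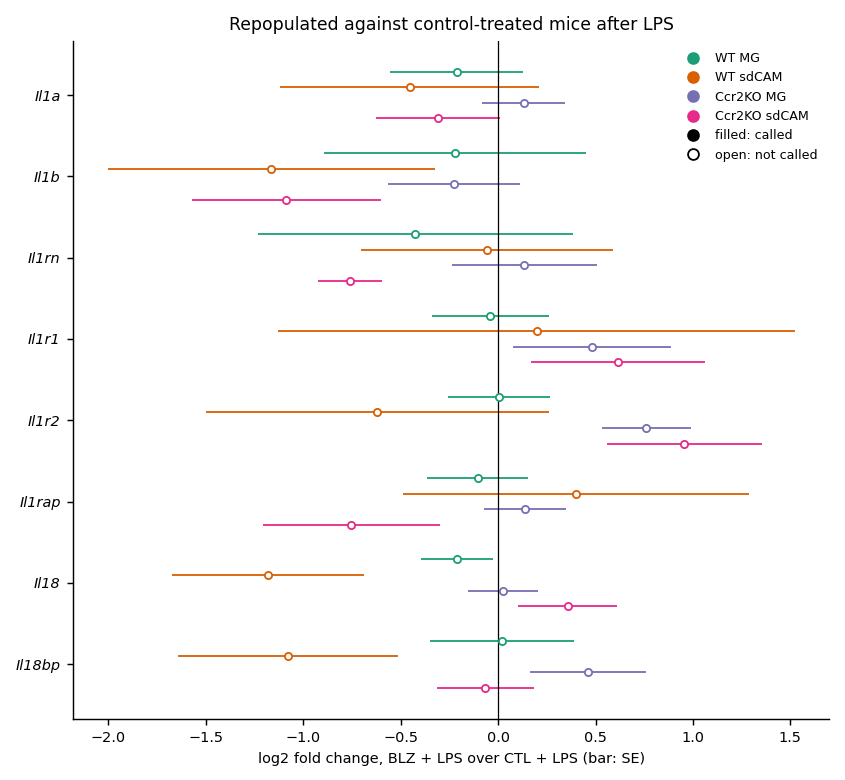
Log2 fold change of each member after BLZ+LPS over CTL+LPS (horizontal axis, bars give the SE, 3 mice per group) in MG and sdCAMs of WT and Ccr2 KO mice. All points are open, since no member was called, and Il1rn in Ccr2 KO sdCAMs at -0.76 has the narrowest bar.

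Genotypes were compared in one fit per cell type. The WT and Ccr2 KO libraries stand in separate count files, so that genotype and file cannot be told apart. Both carry the same batch label, and no batch term was used here, whereas the paper applied ComBat-seq to its WT and Ccr2 KO data. In untreated MG, 0 members differed between Ccr2 KO and WT mice (5.52% of 12423 genes called), with 1 member, Il18 (0.48, SE 0.18, adjusted p = 0.0803), at an unadjusted p under 0.05 and 0 called by DESeq2. The other 7 ranged from -0.51 (Il1rn, SE 2.65) to 0.42 (Il1a, SE 0.32). In untreated sdCAMs, 4 members were called, against 9.5% of 13258 genes. These libraries held 1929070 to 3049028 counts in WT and 8124128 to 8929948 in Ccr2 KO mice. Their microglial markers stood at a median of 14.3% to 36.8% of MG of the same mouse in WT and 6.76% to 9.91% in Ccr2 KO mice. The part of these differences in the calls was not tested. Il1rn was higher in Ccr2 KO mice, at 3.72 to 6.68 CPM against 0.41 to 1.75 CPM (2.52, SE 0.59, adjusted p = 0.0139), and Il18bp was higher at 24.1 to 52 against 3.11 to 19.7 CPM (1.51, SE 0.47, adjusted p = 0.0474). Il1r1 had 19 counts in WT and 1 in Ccr2 KO libraries, 70-fold higher in WT (exact 95% counting interval 11.1 to 2910, adjusted p = 0.0226). Of the WT counts, 15 came from mouse 15, the library with 36.8% of the microglial markers. Il1r2 had 22 and 2 counts, 40.5-fold higher in WT (9.97 to 356, adjusted p = 0.0162), of which 21 came from mouse 9. None of these calls was kept when each library was left out in turn: Il1rn was lost without WT mouse 9 or 14 or Ccr2 KO mouse 5f (adjusted p = 0.0556 to 0.0628), Il1r1 without WT mouse 15 or any Ccr2 KO mouse (adjusted p = 0.064 to 0.138), Il1r2 without WT mouse 9 or Ccr2 KO mouse 3m or 5f (adjusted p = 0.071 to 0.724), and Il18bp without WT mouse 9 or 14 or any Ccr2 KO mouse (adjusted p = 0.0538 to 0.167). With only the 6 compared libraries in the fit, 0 were called. Il1a, Il1b, Il1rap and Il18 were at -0.68, 0.82, -0.33 and 0.34.

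The difference between the genotypes in LPS response gave 0 called members in MG, where 0% of 12423 genes were called, with 0 at an unadjusted p under 0.05 and 0 by DESeq2, and the members ranged from -0.54 (Il1rap) to 1.22 (Il1r2). In sdCAMs it gave 0 called members, where 0% of 13258 genes were called, with 5 at an unadjusted p under 0.05 and 1 by DESeq2. Il1r1 rose by 7.01 (SE 1.69, adjusted p = 0.189) more in Ccr2 KO than in WT sdCAMs on the log2 scale, and DESeq2 called it (7.46, adjusted p = 0.01). Its level after CTL+LPS was 19.3, 25.2 and 45 CPM in Ccr2 KO and 21.9, 1.17 and 7.06 CPM in WT sdCAMs, which overlapped. Il1r2 (4.38, SE 1.39), Il1rap (2.59, SE 0.98), Il18 (-1.42) and Il18bp (-1.63) were the others, while Il1b and Il1rn were at -0.53 and -0.33 and Il1a had an adjusted p of 0.423. The difference between the genotypes in the BLZ945 effect gave 0 called members in either cell type (0% of genes), with 0 in MG and 1 in sdCAMs, Il18 (1.56, SE 0.56, adjusted p = 0.431), at an unadjusted p under 0.05 and 0 by DESeq2 in both. The other sdCAM values ranged from -1.10 (Il1rap) to 1.59 (Il1r2), and in MG the highest was 0.77 (Il1r2) and the lowest 0.00 (Il1b).

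Other genes of the pathway were taken from a list of 31: 6 ligands, 7 receptors, 13 signalling genes and 5 genes of processing and release. Il18rap, the accessory chain of the IL-18 receptor, was called higher after LPS in all 7 populations, from at most 1.26 CPM to 34.7 to 57.1 CPM in WT MG, from at most 0.116 CPM to 69 to 117 CPM in Ccr2 KO sdCAMs, and from at most 0.887 CPM to 53.5 to 177 CPM in tdT- sdCAMs. With levels this low without LPS, a difference was bound to appear, as for the members with few or no counts. The numbers of called receptors below include Il18rap with this limit. Irak3, an inhibitor of IL-1 receptor signalling, was called higher in all but reporter MG, by 2.12 (SE 0.39) in WT MG and by 4.21 (SE 0.27) in Ccr2 KO sdCAMs. Its level there went from 17.2 to 29 CPM to 340 to 463 CPM. The inflammasome adaptor Pycard was called higher in sdCAMs of WT (4.29, SE 0.96), Ccr2 KO (2.09, SE 0.18), tdT+ (1.27, SE 0.39) and tdT- cells (2.91, SE 0.41) and was at -0.42, -0.07 and 0.04 in MG of WT, Ccr2 KO and reporter mice. Casp1, the caspase that cuts both precursors, was called in none of the 7 populations.

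By group of the list, WT MG gave 1 of 3 tested receptors, 1 of 13 signalling genes and 2 of 5 processing genes higher, with a median of 0.28 over the signalling genes and 0.05 over the processing genes against 0.02 over all genes tested. Of all genes, 9.08% were called higher in WT MG, a share that 1 of 13 does not exceed, and 10.9% in Ccr2 KO sdCAMs. Ccr2 KO sdCAMs gave 2 of 3 receptors (Il18rap and Il1rl2, 2.77), 3 of 13 signalling genes (Irak3, Myd88, 1.67, and Peli1, 2.02) and 4 of 5 processing genes (Casp4, 2.7, Pycard, Nlrp3, 1.52, and Gsdmd, 1.23) higher, with medians of 0.27 and 1.52 against -0.05. Of the processing genes, 1 of 5 was called higher in WT sdCAMs, where 3.7% of all genes were, and 1 of 5 in Ccr2 KO MG (10.5% of all genes). It was 0 of 5 in reporter MG (0.662%), 2 of 5 in tdT+ (7.54%) and 3 of 5 in tdT- sdCAMs (14.5%). No gene of the list was called lower in any of these 7 comparisons, and none was called for BLZ+LPS against CTL+LPS. Of the ligands, at most 1 of 6 passed the filter in any comparison, Il33, which was not called.

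The genes whose pattern was most like that of Il1b over the 18 group means, by Pearson's r of log2(CPM + 1) among 8659 genes, were Ybx3 (0.96), Galnt6 (0.951), Gpr18 (0.947), Cxcl10 (0.945) and Tnf (0.944). For Il1rn they were Acod1 (0.981), Fcgr4 (0.977), Etf1 (0.962), Ptges (0.961) and Tarm1 (0.961). Acod1 ranged from 0 to 499 CPM and Ptges from 0 to 226 CPM over the groups. These values describe an order over groups that share animals and libraries, and no test was made.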

How the data were processed

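Counts were deposited by the authors as 3 tables of whole-number counts per gene symbol (18 libraries each), which they made, per the paper's methods and the processing notes, with bcl2fastq 2.20, STAR 2.7.11a and featureCounts 2.0.8 from SMARTer and Nextera XT libraries without molecular identifiers. The build was given as mm10 or GRCm39, and the use of strand is not given in the sources used here, so that reads of antisense genes that overlap Il1a (Gm14023), Il1b (Il1bos), Il1rap (Gm20319) and Il18bp (Numa1) cannot be told apart from theirs. From the counts, edgeR 4.0.16 (R 4.3.3) filtered low genes (filterByExpr), scaled by TMM and ran quasi-likelihood tests in one fit per genotype, cell type or both, with Benjamini-Hochberg adjustment over all genes tested. DESeq2 1.42.0, limma 3.58.1 and other settings served as alternatives. The scripts were tested on simulated counts with planted changes. Of planted log2 changes of 3 in size, 98% were called in WT MG and 89.4% in Ccr2 KO sdCAMs. It was 15.7% in WT sdCAMs and 0% in reporter MG. An uncalled member in WT sdCAMs or reporter MG therefore does not show a lack of change. Depth was 1705930 to 11330781 counts per library, and 6948 of 33280 symbols had none. Libraries were grouped by genotype, cell type and treatment labels, and each replicate is 1 mouse. MG and sdCAMs of a number came from the same mouse, which pairs them, and their deviations from the group means correlated at -0.127 to 0.33. The text gives the 8 members in every comparison, singly or by their range, and names called genes of the pathway list of 31, markers that move with a group and the 5 genes most like Il1b and Il1rn. The members and lists were chosen with earlier results of these data known. Exon lengths for levels per kilobase came from the union of annotated exons, and promoters from a table based on RefSeq (GRCm38.p6). Counting intervals are exact at 95%.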

Additional observations from a re-analysis of the deposited data

Results flagged for a closer look

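The response to LPS differed between sdCAMs and MG in 3 cases, by the interaction term of edgeR's quasi-likelihood fit. In Ccr2 KO mice, Il1a rose by 2.28 (log2, adjusted p = 0.00122) and Il1r1 by 7.53 (adjusted p = 8.33e-05) more in sdCAMs, the latter from 1 count in the untreated sdCAM libraries together, so that its size is set by the low-count floor and gives no resting level. In WT mice, Il1r2 rose by less in sdCAMs, with a difference of -5.76 (adjusted p = 0.0298), of whose 22 untreated sdCAM counts 21 came from mouse 9. It was at -2.05 (adjusted p = 0.517) without that library and at -5.09 (adjusted p = 0.0755) with the mouse as a block, and the call was lost without any of 8 of the 12 libraries.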

How the results depend on the processing

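All calls for LPS in WT MG, Ccr2 KO MG and Ccr2 KO sdCAMs were kept under 7 other settings and without any single library. For members that had few or no counts without LPS, a kept call adds no support, since a difference was bound to appear. Numbers of called members changed elsewhere, with the reported number in parentheses, and the cause was not tested. The share of all genes called under each of these settings is not given here. Without the low-count filter they were 1 (0) for BLZ945 in Ccr2 KO sdCAMs, 3 (1) for LPS in reporter MG, 1 (0) for tdT after LPS, 1 (0) for the tdT difference in response, 6 (2) for reporter cell types after PBS, 3 (0) for the reporter difference in response between cell types and 2 (0) for the genotype difference in the LPS response of sdCAMs. DESeq2 gave 3, 4, 2 and 1 for LPS in reporter MG, reporter cell types after PBS, the reporter cell type difference in response and the genotype difference in sdCAMs. With only the compared libraries in the fit, the numbers were 1 (3) for untreated WT cell types, 1 (2) for reporter cell types after PBS, 0 (4) for genotype in untreated sdCAMs and 1 (0) for the genotype difference in LPS response. Median-of-ratios factors gave 2 (4) for WT cell types after CTL+LPS, where library totals put Il18 at -0.33. For the WT cell type difference in response (1), library totals gave 2, IEG-labelled sdCAM libraries alone gave 2, and the replicate block gave 0. The IEG label as a covariate gave 1 (4) for genotype in untreated sdCAMs, and the IEG-labelled libraries alone gave 2 (0) for the genotype difference in LPS response. The replicate block changed no other call than those of Il1r2 and Il1rn given in the report. Il1r1 over averaged reporter sdCAMs (3.10, adjusted p = 0.0512) was called by DESeq2 (3.22, 0.0116), with median-of-ratios factors (3.21, 0.0454), without the low-count filter (3.01, 0.000587), with the study's low-count rule (3.05, 0.0362) and in limma with the mouse as a random block (5.48, 0.00149), but not with library totals (2.81, 0.0619).

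Leaving out single libraries gave 2 to 3 (4) for LPS in WT sdCAMs, 0 to 3 (1) in reporter MG, 1 to 4 (3) in tdT+ and 2 to 5 (4) in averaged sdCAMs, 0 to 1 (0) for tdT after LPS, 2 to 4 (4) for WT cell types after CTL+LPS, 0 to 1 (1) for the WT and 0 to 1 (0) for the reporter cell type difference in response, 1 to 3 (2) for reporter cell types after PBS and 0 to 3 (4) for genotype in untreated sdCAMs. With 5 counts added, the shift of Il1rn to Il1a plus Il1b was 6.56 in WT MG, 5.23 in WT sdCAMs, 7.37 in Ccr2 KO MG and 5.76 in reporter MG, and that of Il1r2 to Il1r1 was 6.61, 7.93 and 9.48 in MG of WT, Ccr2 KO and reporter mice. Without single libraries, the shift of Il18bp to Il18 was -1.30 to 0.10 in tdT+ sdCAMs, 0.19 (LPS mouse 1) to 1.51 (LPS mouse 7) in tdT- sdCAMs, 0.76 (mouse 175) to 4.31 (mouse 177) in reporter MG and 1.64 to 3.38 in WT sdCAMs. That of Il1r2 to Il1r1 in WT sdCAMs was 1.71 (mouse 15) to 6.90 (mouse 9), and it was -0.050 to 6.90 in tdT+ and -0.72 to 5.40 in tdT- sdCAMs, lowest without mouse 174 and highest without mouse 175. Few counts without LPS limit the folds of Il1rn, Il1r1 and Il1r2.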
